A study of Mus musculus with 9 samples.

Results

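Inflammatory cytokines and targets of NF-κB were followed through the mouse cells of glioblastoma (GBM) xenografts by 10 genes, chosen by name: Il1a, Il1b, Il1rn, Tnf, Nfkbia, Nfkbiz, Tnfaip3, Cxcl2, Cxcl16 and Ptgs2. All 10 are listed in every file, among 12580 gene symbols that every file holds and 33274 that at least 1 file holds. The mouse cells came from 9 Drop-seq samples, in which transcripts of single cells are counted as unique molecular identifiers (UMIs) near the 3′ end. In a patient-derived orthotopic xenograft (PDOX), organoids made from the GBM of a patient are implanted into the right frontal cortex of a mouse, and only the mouse cells around the human tumor cells are described here. Samples without drug came from the 7 PDOXs P3, P8, P13, T16, T101, T192 and T233, a further P3 mouse had received temozolomide (TMZ, an alkylating drug) by gavage, and a normal brain (Nu-NB) stood for mice without a tumor. Tumors grew in female athymic nude mice, and Nu-NB came from the same strain, whose mice lack mature T cells but keep myeloid cells. The labels call all 7 PDOXs untreated, each PDOX is 1 library of 1 model, and age is not given in the labels. T192 and T233 came from the same patient, from tumors taken before and after treatment of that patient with radiotherapy and TMZ. P8 and Nu-NB were sorted by FACS, and in the other 7 samples mouse and human cells were separated by MACS.

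NF-κB is held in the cytoplasm by inhibitors of the IκB family until a signal, such as a microbial product, Il1 or Tnf, has them destroyed. It then enters the nucleus and switches on cytokines and chemokines, and also its own brakes, among them Nfkbia and Tnfaip3. In the brain, microglia and macrophages that enter from the blood are the best known source of Il1b and Tnf, and both cytokines act back on endothelial cells and astrocytes.

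In the GENCODE annotation of GRCm38 the cytokines and the antagonist lie as follows: Il1a at chr2:129299610-129309972 (- strand), Il1b at chr2:129364570-129371139 (- strand), Il1rn at chr2:24336853-24351494 (+ strand) and Tnf at chr17:35199381-35202007 (- strand). The inhibitors lie at other places, with Nfkbia at chr12:55489410-55492647 (- strand), Nfkbiz at chr16:55811375-55838899 (- strand) and Tnfaip3 at chr10:19000910-19015657 (- strand). The chemokines and the cyclooxygenase are Cxcl2 at chr5:90903871-90905938 (+ strand), Cxcl16 at chr11:70453983-70459984 (- strand) and Ptgs2 at chr1:150100031-150108227 (+ strand). Il1a and Il1b thus lie on the same strand of chromosome 2, near each other, with Il1rn farther away on the opposite strand.

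Of the 10 genes, 8 had an entry among the RefSeq promoters of GRCm38.p6, which reach from 250 bases before the start site to 50 after it, and no entry was found for Nfkbiz and Cxcl16. The consensus of NF-κB, a motif of 10 letters searched on both strands, was matched in windows of 3 of these 8 genes, where 5.14% of all genes with an entry and 4.51% of all 32851 windows held a match. The 250 bases before the start site are shown for these 3 genes because they carry the matched letters, which are in capitals: on chr5:90903649-90903898 for Cxcl2 (+ strand), on chr10:19015411-19015660 for Tnfaip3 (- strand) and on chr12:55492648-55492897 for Nfkbia (- strand). The capitals of Cxcl2 are 2 matches on opposite strands that overlap, Tnfaip3 has 2 separate matches in 1 of its 2 windows, and Nfkbia has 1.
Cxcl2: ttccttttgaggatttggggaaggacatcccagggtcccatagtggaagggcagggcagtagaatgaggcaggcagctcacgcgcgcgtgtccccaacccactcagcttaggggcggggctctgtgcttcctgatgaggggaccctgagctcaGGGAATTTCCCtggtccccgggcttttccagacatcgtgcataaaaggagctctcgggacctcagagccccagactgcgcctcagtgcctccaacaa
Tnfaip3: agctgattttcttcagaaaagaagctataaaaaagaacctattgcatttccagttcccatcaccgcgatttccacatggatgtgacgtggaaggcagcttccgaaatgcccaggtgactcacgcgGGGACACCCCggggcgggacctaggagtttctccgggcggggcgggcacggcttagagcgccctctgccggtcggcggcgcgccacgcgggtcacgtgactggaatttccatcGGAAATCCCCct
Nfkbia: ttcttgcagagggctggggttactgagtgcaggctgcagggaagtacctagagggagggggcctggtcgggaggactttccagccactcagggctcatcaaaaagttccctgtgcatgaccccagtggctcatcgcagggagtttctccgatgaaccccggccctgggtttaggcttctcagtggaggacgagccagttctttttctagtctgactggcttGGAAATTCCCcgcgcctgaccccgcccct
These are matches of letters, and binding was not measured here. The start sites are those of RefSeq, and for Cxcl2 and Tnfaip3 they differ from the ends of the GENCODE genes given above. Of the bases printed, 247 of Tnfaip3, both of its matches among them, and 28 of Cxcl2 lie inside the gene as GENCODE places it, and 0 of Nfkbia do.

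The files held 1519323 UMIs for Nu-NB, 1709049 for the TMZ sample and 1294068 to 8410580 for the 7 PDOXs (median 3571688). Cell barcodes were seldom shared, at most 11 between a pair of samples. Clusters were named from marker genes with the ending "-like", and cells with the markers of more than 1 class or of none were left out. The 12 myeloid markers were all detected in myeloid-like cells of the PDOXs and summed to 32517 to 47362 CPM (a gene's UMIs scaled to the same total in every sum of cells), against 36232 CPM in Nu-NB. Myeloid-like cells numbered 700 in Nu-NB, 595 in P8, 401 in T101, 1076 in T192, 519 in T233, 256 in P3, 265 in T16, 577 in P13 and 334 after TMZ. They did not fall into the same clusters in all samples. In Nu-NB, 628 of the 700 cells were in the cluster with markers of homeostatic microglia, in T101 329 of 401 were in the monocyte-like cluster, and in P8, T192, T233 and P3 most were in the clusters with markers of activated microglia. T16 and P13 held more homeostatic than activated microglia-like cells. The monocyte-like cluster was 63.9% T101 cells, and no batch was corrected for. By mapping to reference data, the authors instead called most myeloid cells of each PDOX microglia and described monocyte-derived cells in T101 as rare. This difference was not resolved here. The 10 genes were kept out of the genes used to build the clusters.

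The first comparison asked in which cells of the tumor these genes were found. In the 7 PDOXs, Il1a, Il1b, Tnf, Nfkbiz, Cxcl2 and Cxcl16 were higher in myeloid-like than in endothelial-like cells, by 3.37 to 5.55 on the log2 scale. These were 6 of the 7 genes with enough UMIs to be tested by edgeR on UMIs summed per sample and class (quasi-likelihood, sample as a block, called at FDR ≤ 0.01 and |log2FC| ≥ 1). Of all 4551 genes tested, 16.3% were called higher in myeloid-like cells and 31.0% in either direction, 742 up and 671 down. Without TMM scaling the split was 626 up and 880 down, and by DESeq2 820 up and 619 down.

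Il1b, the secreted form of interleukin 1 that has to be cut by caspase, was at 270 to 1645 CPM in myeloid-like cells (median 474) and at 1.47 to 91.7 CPM in endothelial-like cells (median 14.8). The ranges did not overlap, and the difference was log2FC 5.55 (SE 0.49, edgeR FDR 2.13e-07, n = 7 PDOXs). Il1a, the form of interleukin 1 that also acts from the cell surface, was at 43.3 to 360 CPM against 0 to 21.8 CPM (log2FC 5.15, SE 0.37, edgeR FDR 2.61e-08). Cxcl2, which draws neutrophils, was at 9.70 to 342 CPM against 0 to 43.6 CPM (log2FC 5.37, SE 0.46, edgeR FDR 1.52e-07). The ranges of Il1a did not overlap, while those of Cxcl2 did, with P8 low for myeloid-like and T192 and T233 high for endothelial-like cells. Tnf, the cytokine that opens the NF-κB pathway through its own receptors, was at 21.5 to 484 CPM against 0 to 65.4 CPM (log2FC 4.49, SE 0.48, edgeR FDR 1.71e-06), with the same PDOXs in the overlap. The endothelial-like cells of T233 also held the highest sum of myeloid markers, 6350 CPM, where the median of the 7 PDOXs was 813 CPM, and its part in these values was not tested.

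Cxcl16 is made as a membrane protein that binds lipids and is shed as a chemokine for lymphocytes. It differed by log2FC 3.88 (SE 0.27, edgeR FDR 2.08e-08), from 48.7 to 310 CPM in myeloid-like and from 0 to 32.7 CPM in endothelial-like cells. Nfkbiz, a nuclear member of the IκB family that helps to switch on a subset of targets, differed by log2FC 3.37 (SE 0.19, edgeR FDR 3.73e-09), from 175 to 869 CPM and from 26.5 to 87.3 CPM. No range of these 2 genes overlapped between the classes. Nfkbia, which encodes IκBα, was the exception. Its levels in endothelial-like cells, 522 to 901 CPM (median 666), lay within those of the myeloid-like cells, 309 to 1862 CPM (median 960), and the difference of log2FC 0.53 (SE 0.28) did not pass the test (edgeR FDR 0.119).
The order of the classes for Nfkbia differed between PDOXs. The endothelial-like level was 2.92 times the myeloid-like level in P8 (95% counting interval 2.33 to 3.62) and 0.403 times in T192 (0.344 to 0.470). P3 (0.473), T16 (0.605) and P13 (0.840) also lay below 1, so that endothelial-like cells were lower in 4 of 7 PDOXs and higher in 1 with an interval that left out 1. In T101 (0.980) and T233 (0.914) the interval held 1.

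The other 3 genes had too few UMIs to pass the filter on low counts in this comparison. Without the filter, Il1rn, the receptor antagonist of interleukin 1, and Tnfaip3, an enzyme that edits ubiquitin chains and so brakes the pathway, were called higher in myeloid-like cells by edgeR (log2FC 4.31, FDR 7.77e-10, and log2FC 3.60, FDR 5.56e-13), where 15.4% of the 12568 genes of that fit were. Ptgs2, the inducible cyclooxygenase that starts the making of prostaglandins, was not called (log2FC 1.05, FDR 0.0254).

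Droplets carry free RNA, so a low level in endothelial-like cells was read against the 12 myeloid markers. Summed over the 7 PDOXs, these markers reached 1.75% to 3.22% of their myeloid-like level in endothelial-like cells (median 2.21%). Il1a (1.84%), Il1b (1.56%), Tnf (2.77%) and Cxcl2 (2.21%) had shares within or close to that range, and their counting intervals overlapped it. Il1rn was at 4.93% from 5 UMIs, with an interval of 1.59% to 11.7%.
Nfkbia reached 64.8% of its myeloid-like level (interval 61.7% to 68.0%) and Ptgs2 33.1% (25.9% to 41.9%). Nfkbiz stood at 7.82% (6.39% to 9.47%), Cxcl16 at 6.81% (4.80% to 9.39%) and Tnfaip3 at 6.54% (3.85% to 10.4%). The intervals of these 5 genes lay above the highest marker, and how many of all genes do so was not counted. These sums rest in large part on T192. Without T192, Nfkbia was at 106% (99.6% to 112%) and Ptgs2 at 82.7% (62.0% to 109%), Nfkbiz at 12.6%, Tnfaip3 at 11.9% and Tnf at 4.65% (2.21% to 8.65%), with the highest marker at 2.95%. Without P13, Il1a was at 2.86% and Il1b at 2.62%, with the highest marker at 4.05%.
The ratio of Ptgs2 in endothelial-like to myeloid-like cells differed between PDOXs, from 0.102 in T192 (counting interval 0.0276 to 0.262) to 15.3 in P8 (3.89 to 63.4). It was also below 1 in T16 (0.134, 0.0224 to 0.589) and P13 (0.334, 0.214 to 0.511) and above 1 in T101 (1.95, 1.12 to 3.38). In T233 (1.27) and P3 (0.682) the interval held 1. Leaving out T16 took Tnfaip3 from that list, leaving out P13 took Tnfaip3 and Cxcl16, and Nfkbia, Ptgs2 and Nfkbiz remained in each of the 7 cases.

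**Figure D1:**
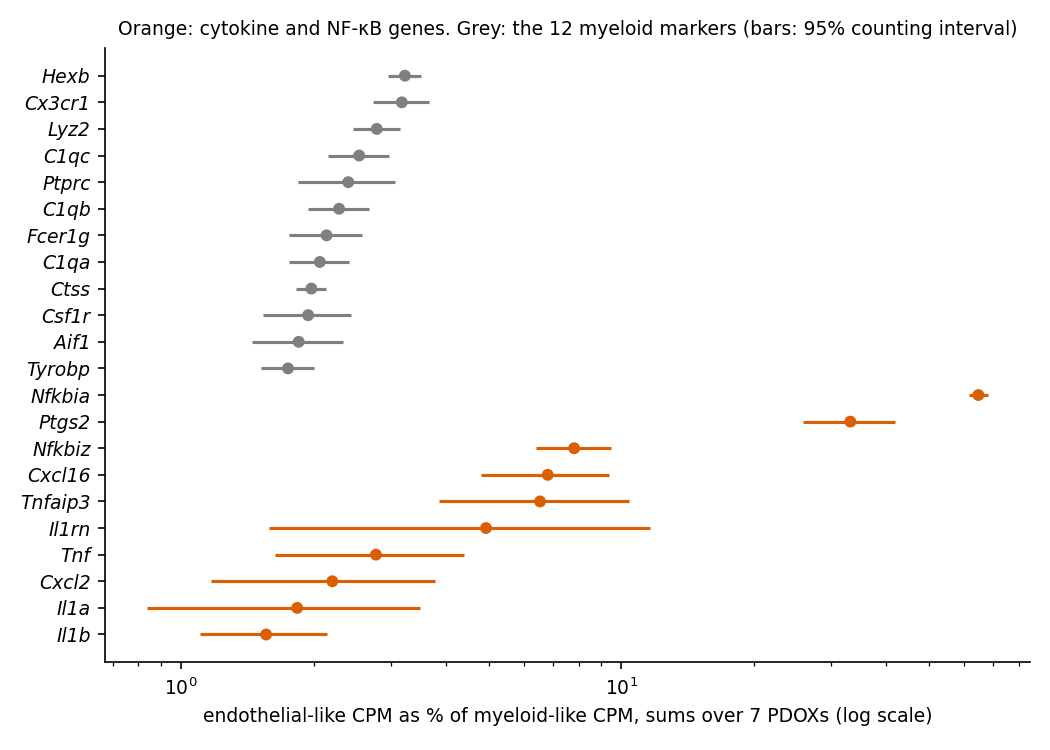
Level in endothelial-like cells as a percent of the level in myeloid-like cells of the same 7 PDOXs, on a log axis, for the 12 myeloid markers (grey) and the 10 genes (orange), with 95% counting intervals as bars. The markers lie between 1.75% and 3.22%, Nfkbia is at 64.8% and Ptgs2 at 33.1%, which become 106% and 82.7% without T192.

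Ptgs2 was unevenly spread over the endothelial-like cells of the PDOXs. It was at 197 CPM in T101 (29 UMIs, interval 132 to 283), 53.0 in P8, 32.7 in T233, 22.7 in P13, 19.7 in P3, 17.5 in T192 and 4.58 in T16. T101 was higher than any other PDOX, while the intervals of P8 (19.5 to 115) and P13 (15.5 to 32.3) overlapped. In Nu-NB no Ptgs2 UMI was among the 16803 UMIs of 35 endothelial-like cells, which allows a level of up to 179 CPM.

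Against astrocyte-like cells, in the 6 PDOXs with at least 10 of them, all 9 genes that could be tested were higher in myeloid-like cells, where 25.3% of 6134 genes were called higher and 40.5% in either direction. Cxcl16 differed most (log2FC 5.75, SE 0.44, edgeR FDR 2.04e-10), and Nfkbia least (log2FC 2.39, SE 0.30, edgeR FDR 3.13e-07). Ptgs2 was among them (log2FC 4.32, SE 0.54, edgeR FDR 3.70e-07). Il1rn had no UMI in astrocyte-like cells of these PDOXs and was not tested. As a share of the myeloid-like level, only the Nfkbia share of astrocyte-like cells lay above the 12 markers, at 17.8% (interval 16% to 19.7%) against 2.04% to 6.58%. In mural-like cells the markers themselves reached 14.3% to 37.4% and Nfkbia 48.8%, and P13 held 10909 CPM of myeloid markers there. No other gene of the set stood above the markers in mural-like cells.

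At equal depth the same classes were compared by the share of cells with a UMI, after cells of at least 500 UMIs had been thinned to 500. In myeloid-like cells of the PDOXs, Nfkbia was found in 13.9% to 49.3% of cells (median 32.5%), Il1b in 8.52% to 43.4% (median 13.8%) and Nfkbiz in 5.11% to 30.3% (median 9.46%). Before thinning, when median depths were 436.5 to 1126 UMIs per cell, these medians were 34.0%, 20.8% and 18.9% in myeloid-like cells. Endothelial-like cells of the same PDOXs, with median depths of 418 to 1105 UMIs, gave 19.0% to 43.7% for Nfkbia, at most 3.05% for Il1b and at most 4.58% for Nfkbiz. The share of myeloid-like cells was the higher one in all 7 PDOXs for 8 of the 10 genes, where 6.94% of 12388 genes with a UMI at this depth were higher in all 7, and Nfkbia and Ptgs2 were the exceptions.
Il1rn was found in 0.658% to 5.41% of myeloid-like cells (median 0.862%). Its lowest and median shares are 1 cell each, 1 of 152 in T16 and 1 of 116 in P3, against 0 of 339 and 0 of 100 endothelial-like cells. For Cxcl2 in P8 it was 2 of 411 against 0 of 95, so that such orders rest on very few cells. A median of 4.36% held Tnf, 5.17% Cxcl2, 5.35% Cxcl16, 2.84% Il1a, 2.63% Tnfaip3 and 1.42% Ptgs2. With at least 2 UMIs asked for, the share was higher in all 7 PDOXs for only 2 of the 10 genes, and the share over all genes was not counted at that setting.

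**Figure D2:**
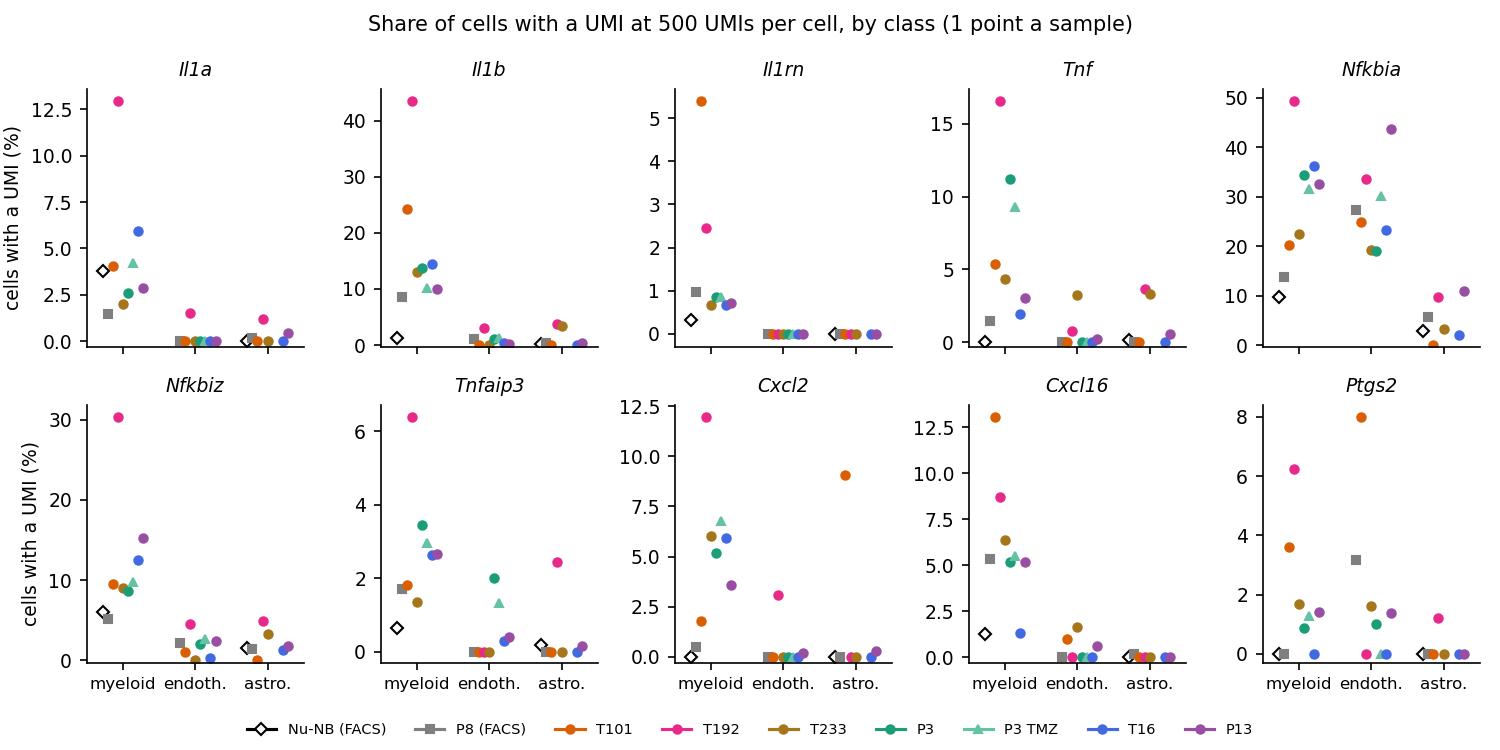
Percent of cells with at least 1 UMI of each gene at 500 UMIs per cell in myeloid-, endothelial- and astrocyte-like cells, with 1 point a sample and a scale of its own in each panel. Myeloid-like shares exceed endothelial-like shares in all 7 PDOXs for 8 genes, while for Nfkbia the endothelial-like shares of 19.0% to 43.7% fall among the myeloid-like ones.

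How many of the genes a cell held was counted at 500 UMIs, with no value for independent detection beside it. There, 81.1% of the myeloid-like cells of T192 held at least 1 of the 10 genes and 31.3% at least 3. In T101, T233, P3, T16 and P13, 46.6% to 57.2% held at least 1 and 4.61% to 8.56% at least 3. P8 had 32.4% and 0.487%, and Nu-NB 19.9% and 0.316%. T192 stood above and P8 below the other PDOXs. Nfkbia was more frequent among cells with Nfkbiz than among cells without it in 7 of 7 PDOXs, with medians of 40.0% and 27.7%. Il1b was more frequent among cells with Tnf, with Nfkbia and with Cxcl2 in 6 of 7 PDOXs each, with Cxcl16 in 5 and with Il1a in 3. Some of these groups are too small to show a direction, with as few as 2 cells with Cxcl2 or Cxcl16 and 3 with Tnf or Il1a in a PDOX, while cells with Nfkbia numbered at least 40.

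The second comparison set the myeloid-like cells of the 7 PDOXs against those of Nu-NB. For 9 of the 10 genes the level in every PDOX was above that in Nu-NB, and Il1a was the exception. Of all 9145 genes tested, 16.9% were above Nu-NB in every PDOX. No gene was called by edgeR at FDR ≤ 0.01 among these 9145 (0.0%), of which 1751 had an unadjusted p under 0.05, and DESeq2 called 238 genes. There is 1 brain, its spread is taken to be that of the PDOXs, and 9 of the 10 genes had at most 64 UMIs in its myeloid-like cells.

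Among the ligands, Il1b was at 91.6 CPM in Nu-NB (37 UMIs) and at 270 CPM (P8) to 1645 CPM (T192) in the PDOXs, with a median of 474 and a mean of 673 ± 476 (SD, n = 7). All PDOXs lay above Nu-NB, and the difference was log2FC 3.15 (SE 0.99, edgeR FDR 0.133). Tnf was at 2.48 CPM in Nu-NB, from 1 UMI, and at 21.5 (P8) to 484 CPM (T192), with a median of 118 and a mean of 161 ± 149 (SD, n = 7). The groups did not overlap, and log2FC was 6.23 (SE 1.93, edgeR FDR 0.129). The pooled Tnf level of the PDOXs was 93.6 times that of Nu-NB, with a counting interval of 16.8 to 3700. T192 gave 1242 of the 1607 pooled Tnf UMIs, and the median PDOX was at 47.8 times Nu-NB. Il1a, in contrast, was at 81.7 CPM in Nu-NB (33 UMIs) and at 43.3 (P3) to 360 CPM (T192), median 83.6, so that Nu-NB lay amid the PDOXs (log2FC 0.77, SE 0.98, edgeR FDR 0.702).
Il1rn was at 12.4 CPM in Nu-NB (5 UMIs) and at 13.9 (P8) to 146 CPM (T101), median 27.9. Its log2FC of 1.98 (SE 1.32) came with an edgeR FDR of 0.431, and in 5 PDOXs the counting interval overlapped that of Nu-NB.

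Of the inhibitors and cofactors of NF-κB, Nfkbia was at 258 CPM in Nu-NB (104 UMIs) and at 309 (P8) to 1862 CPM (T192), with a median of 960 and a mean of 947 ± 483 (SD, n = 7). Its interval overlapped that of Nu-NB in P8 and lay above it in the other 6 PDOXs (log2FC 2.16, SE 0.80, edgeR FDR 0.178). Nfkbiz was at 158 CPM (64 UMIs) and at 175 (P8) to 869 CPM (T192), median 278 (log2FC 1.47, SE 0.76, edgeR FDR 0.306). Tnfaip3 was at 12.4 CPM (5 UMIs) and at 31.2 (P8) to 177 CPM (T192), median 57.7 (log2FC 2.83, SE 1.04, edgeR FDR 0.174). In all 3 genes T192 was the highest PDOX and P8 the lowest.

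Of the chemokines, Cxcl16 was at 19.8 CPM in Nu-NB (8 UMIs) and at 48.7 (T16) to 310 CPM (T101), with a median of 191 and a mean of 188 ± 77.7 (SD, n = 7). It had the lowest FDR of the set (log2FC 3.53, SE 0.86, edgeR FDR 0.0966). Cxcl2 was at 4.95 CPM (2 UMIs) and at 9.70 (P8) to 342 CPM (T192), median 193 (log2FC 5.42, SE 1.82, edgeR FDR 0.154). Ptgs2 had no UMI among the 403813 of Nu-NB, which allows up to 7.43 CPM, and was at 3.46 (P8) to 172 CPM (T192) in the PDOXs. The median PDOX was at least 4.59-fold higher than that limit, and P8 alone fell under it (edgeR FDR 0.206).
By DESeq2, Il1b (FDR 0.00250), Tnf (FDR 0.00524), Cxcl2 (FDR 0.00351) and Cxcl16 (FDR 0.000626) passed the threshold. Il1a, Nfkbia, Nfkbiz and Tnfaip3 did not, and Il1rn and Ptgs2 were given no FDR by DESeq2. Over all alternatives the FDR of Il1b ranged from 0.00250 to 0.164, that of Tnf from 0.00524 to 0.181, that of Cxcl2 from 0.00351 to 0.228 and that of Cxcl16 from 0.000626 to 0.148. The median log2FC of the 10 genes was 2.99, that of all genes 0.13, and 7 of the 10 had an unadjusted p under 0.05 in the edgeR fit.

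**Figure D3:**
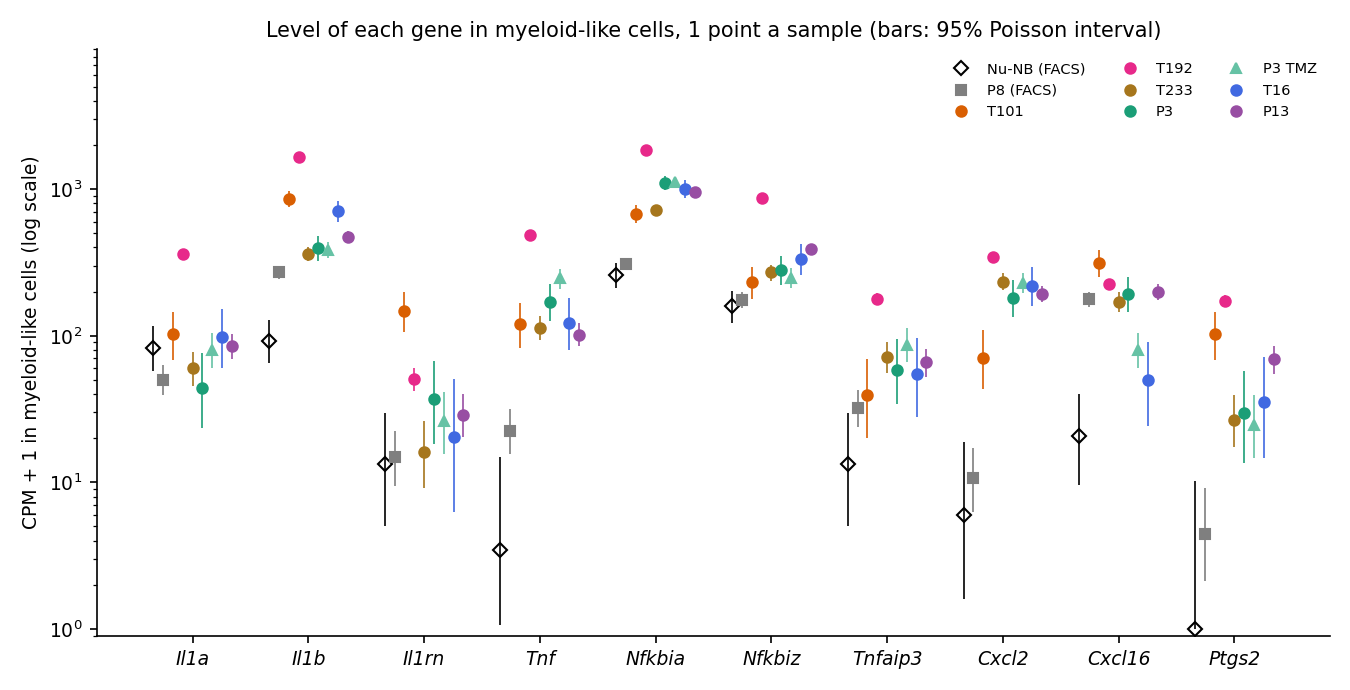
Level of each gene in myeloid-like cells in CPM + 1 on a log axis, 1 point a sample, with 95% Poisson intervals as bars. Nu-NB (open diamonds) lies below every PDOX for all genes but Il1a, P8 (grey squares) is the lowest PDOX for 8 genes and T192 (pink) the highest for 8.

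Cell sort and group overlapped in part, since Nu-NB shared FACS with P8 only. Between these 2 libraries the differences were smaller. Cxcl16 was 8.88 times as high in P8 as in Nu-NB (counting interval 4.44 to 20.8), Tnf 8.67 times (1.44 to 353), Il1b 2.95 times (2.10 to 4.25) and Tnfaip3 2.52 times (1.002 to 8.13). Il1a was lower in P8, at 0.602 times Nu-NB (0.393 to 0.939). Nfkbia was at 1.20 times (0.967 to 1.5) and Nfkbiz at 1.10 times (0.834 to 1.47), which counting error alone covers. Of the 8 genes with at least 20 UMIs in both libraries together, which leaves out Cxcl2 and Ptgs2, 4 were higher in P8 with an interval that left out 1, where 14.3% of 8152 such genes were, and 36.9% left it out in either direction.
All 6 MACS PDOXs lay above P8 for 8 of the 10 genes, the exceptions being Il1a and Cxcl16. P8 was the lowest of the 7 PDOXs for 8 genes, against 10.5% of all genes, and T192 the highest for 8, against 11.3%. Whether the gap between P8 and the others comes with the sort or with the PDOX cannot be told apart. Dissociation can also raise such genes, and 15 immediate early and stress genes summed to 10391 CPM in Nu-NB, 3798 in P8, 5132 in T101, 9342 in T192, 7755 in T233, 8926 in P3, 11900 in T16 and 10321 in P13. P8 was the lowest for this sum as well, while Nu-NB was among the highest. The part of dissociation in the levels of the 10 genes was not tested.

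Within the myeloid-like cells, the clusters were set beside each other in the PDOXs that held at least 10 cells of both, without a test. How often intervals lie apart over all genes was not counted, so that the counts below cannot be read as particular to these genes. Activated and homeostatic microglia-like cells could be paired in 7 PDOXs, but T101 had only 12 homeostatic cells with no UMI of Il1b, Cxcl2 or Cxcl16, which allows up to 486 CPM. Il1b had a median of 712 CPM in activated and 216 CPM in homeostatic cells, and the counting intervals lay apart in 3 of 7 PDOXs (T192, T16 and P13), each time with the activated cells higher. For Cxcl2 the medians were 238 and 57.6 CPM, and activated cells were higher with intervals apart in 2 (T16 and P13). For Cxcl16 the medians were 184 and 53.9 CPM, with intervals apart in 1 (P13). In the other PDOXs the intervals of these 3 genes overlapped. Ptgs2 was higher in activated cells of 1 PDOX (P13) and Nfkbiz in 1 (T16), and for Il1a, Il1rn, Tnf and Tnfaip3 the intervals overlapped in all 7. Nfkbia was higher in activated cells of P3 and lower in those of P13, with medians of 867 and 887 CPM for Nfkbia and of 321 and 323 CPM for Nfkbiz.
In monocyte-like cells, of which 4 PDOXs held at least 10, Il1b was higher than in homeostatic microglia-like cells in 3 (T101, T192 and P13) with intervals apart, and the interval of P8 overlapped (medians 1202 and 139 CPM). Nfkbia was lower there in the same 3 PDOXs (medians 742 and 1591 CPM). Il1a was lower in monocyte-like than in activated microglia-like cells in T192 and P13, while the intervals overlapped in P8 and T101. T192 had the highest values of Il1b, Tnf, Nfkbia and Nfkbiz among the activated microglia-like cells of the PDOXs.

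**Figure D4:**
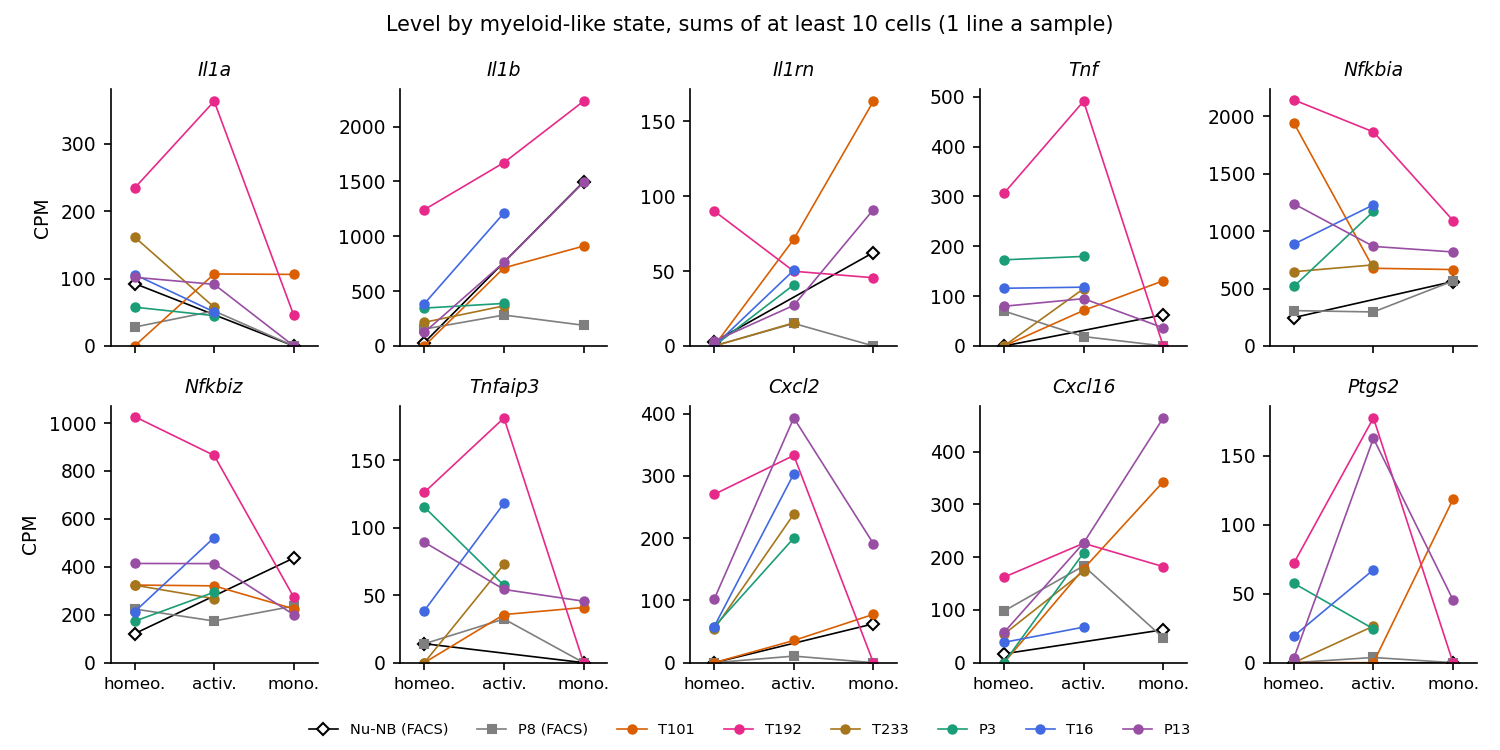
Level of each gene in CPM in homeostatic and activated microglia-like and in monocyte-like cells, 1 line a sample, for sums of at least 10 cells, so that the Nu-NB line skips its 7 activated cells. For Il1b the counting intervals of activated and homeostatic cells lie apart in 3 of 7 PDOXs, homeostatic T101 is a sum of 12 cells, and Il1b of Nu-NB is at 1497 CPM in the monocyte-like cluster, whose 25 Nu-NB cells held 5490 CPM of neutrophil and 2308 CPM of monocyte markers.

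Homeostatic microglia-like cells could be compared between Nu-NB (628 cells) and the PDOXs (12 to 279 cells). Il1b was at 30.9 CPM in Nu-NB (interval 15.4 to 55.3) and at 0 (T101), 124 (P13), 154 (P8), 216 (T233), 345 (P3), 386 (T16) and 1243 CPM (T192) in the PDOXs. The interval lay above that of Nu-NB in 6 PDOXs, and the 12 cells of T101 allow up to 486 CPM. Nfkbia was at 247 CPM in Nu-NB (198 to 305) and at 308 (P8) to 2144 CPM (T192), with a median of 887. Tnf and Cxcl2 had no UMI in the 356005 UMIs of these Nu-NB cells, which allows up to 8.43 CPM, and were at 106 and 93.7 CPM in the 654 cells of all PDOXs together. By PDOX, Tnf was at 0 in T101 and T233 and at 70.0 (P8), 79.6 (P13), 116 (T16), 173 (P3) and 306 CPM (T192). Cxcl2 was at 0 in P8 and T101, at 53.9 (T233) and 57.6 CPM (P3) from 1 UMI each, and at 57.8 (T16), 102 (P13) and 270.3 CPM (T192). T192 was the highest for both, and the sums at 0 in P8, T101 and T233 allow up to 42.0, 486 and 162 CPM.
In Nu-NB, 24 of the 37 Il1b UMIs (64.9%) were in 25 cells of the monocyte-like cluster, at 1497 CPM (959 to 2228). Those 25 cells also carried 88 UMIs of 2 of the 3 neutrophil markers, a sum of 5490 CPM, beside 2308 CPM of monocyte markers. The 329 monocyte-like cells of T101 had 114 CPM of neutrophil and 1303 CPM of monocyte markers, and the sums of P8, T192 and P13 are not given here. The part of neutrophils in the Il1b levels was not tested in any sample. All 33 Il1a UMIs of Nu-NB were in homeostatic microglia-like cells.

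In the other classes the brain gave too few cells for most of the genes. Nfkbia was at 655 CPM in the 35 endothelial-like cells of Nu-NB (11 UMIs, interval 327 to 1171) and at 522 to 901 CPM in the PDOXs. The ranges overlapped, and log2FC was 0.93 (SE 0.48, edgeR FDR 0.399) in a fit where TMM moved the median of all genes to 0.67. None of the 6 genes that could be tested in endothelial-like cells was called, nor was any of all 6264 (0.0%, 857 with an unadjusted p under 0.05, 0 by DESeq2). In astrocyte-like cells Nfkbia was at 63.7 CPM in Nu-NB (42 UMIs of 658860) and at 69.5 (T233) to 310 CPM (T192) in 6 PDOXs, median 190, all above Nu-NB, but with an interval above that of Nu-NB in only 3 of the 6. The level of T233 rests on 3 UMIs. Its log2FC of 1.44 (SE 0.61) did not pass the test (edgeR FDR 0.415). Among all 5567 genes tested there, 13.5% were above and 19.6% below Nu-NB in every PDOX, edgeR called 0 (0.0%) with 630 at an unadjusted p under 0.05, and DESeq2 called 0.

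The wider pathway was followed by a list of 54 receptors, adaptors, kinases, NF-κB subunits, inhibitors and targets, of which 48 are in every file. In myeloid-like cells of PDOXs against Nu-NB, 45 were tested and 0 passed the threshold by edgeR, with 16 at an unadjusted p under 0.05. Of all 9145 genes, 1751 were at an unadjusted p under 0.05. The median log2FC was 0.47 for the list and 0.13 for all genes. The largest differences were those of Cxcl10, Traf1, Gadd45b and Ptger4. Cxcl10, a chemokine induced by interferon, was at 10.7 to 491 CPM in the PDOXs (median 93.1) and had no UMI in Nu-NB, so that the median was at least 12.5-fold higher than the limit of a count of 0. Traf1, an adaptor of Tnf receptors, also had no UMI in Nu-NB but a median of 5.46 CPM, under that limit. Gadd45b, a stress gene, was at 12.5 to 173 CPM against 4.95 CPM (log2FC 4.80, SE 1.43, edgeR FDR 0.124). Ptger4, a receptor for prostaglandin E, was at 9.73 to 69.0 CPM against 2.48 CPM (log2FC 4.22, SE 1.30, edgeR FDR 0.129).
In endothelial-like cells 25 genes of the list were tested and 0 called. Vcam1, Pla2g4a, Tnfrsf1a and Sod2, which had the largest log2FC, were not detected in Nu-NB, and their PDOX medians of 67.9 to 141 CPM were under the 179 CPM that this allows. In astrocyte-like cells 20 were tested and 0 called, with Cxcl10, Zfp36, Gadd45b and Cd83 in front.

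Of 26 genes of the list tested against endothelial-like cells, 15 were higher in myeloid-like cells, 10 were not called and 1 was lower, where 16.3% of all genes were called higher. Among the 15 were Bcl2a1b, which protects from cell death (log2FC 5.78), the receptor Tlr2 (5.40), the surface protein Cd83 (4.73) and the inflammasome sensor Nlrp3 (4.69). Cd14, Casp1, Ptgs1, Rel, Zfp36, Il18, Gadd45b, Il6ra, Icam1, Adam17 and Nfkb1 were the others. Only Vcam1, the adhesion molecule of activated endothelium, was higher in endothelial-like cells (log2FC -2.57). Of 30 tested against astrocyte-like cells, 20 were higher in myeloid-like cells, where 25.3% of all genes were, and Vcam1 (log2FC -3.43) and Il18 (log2FC -2.15) were lower. Il18 therefore stood above endothelial-like and below astrocyte-like cells.

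For the 3 genes of the set with the most UMIs in myeloid-like cells, the genes most like them were sought by Pearson's r of log2(CPM + 10) over the 9 samples, among 1742 genes of at least 100 CPM on average. The 9 points share depth, sort and PDOX, so that r is a description. Nfkbia was most like Ier3 (0.96), Ier2 (0.94), Ppp1r15a (0.94), Ube2d3 (0.92) and Gm10288 (0.92). Ier2 is among the dissociation genes and Ier3 in the pathway list. Il1b was most like Icam1 (0.95), Slc3a2 (0.88), Cd83 (0.87), Rps26-ps1 (0.86) and Ier3 (0.84). Among the genes most like Nfkbiz were Ube2d3 (0.87), Icam1 (0.81), Gpr84 (0.81) and Snrpg (0.80).

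The last comparison set the P3 PDOX after TMZ beside the P3 PDOX without it, 1 library a side, so that no test between conditions was possible and intervals cover counting error only. In myeloid-like cells Cxcl16 was at 78.7 CPM after TMZ and 191 CPM without, a ratio of 0.412 (interval 0.276 to 0.614). Tnf was at 245 and 170 CPM, a ratio of 1.44 (1.04 to 2.04). The 8 others had intervals that held 1, among them Il1b (386 and 393 CPM, ratio 0.982, 0.782 to 1.24) and Nfkbia (1111 and 1104 CPM, ratio 1.01, 0.880 to 1.15). Thus 2 of 10 genes left out 1, where 15.8% of 5523 genes did. The myeloid-like cells after TMZ held 209 activated and 110 homeostatic microglia-like cells, and those without it 219 and 23. Within activated microglia-like cells Cxcl16 was at 88.9 CPM after TMZ and 208 CPM without.
In endothelial-like cells Nfkbia was at 912 CPM after TMZ and 522 CPM without, a ratio of 1.75 (1.33 to 2.3), where 18.5% of 3093 genes left out 1. The other 6 PDOXs lay between 606 and 901 CPM, so that P3 without TMZ was the lowest of all. The remaining genes had at most 9 UMIs in either library.

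**Figure D5:**
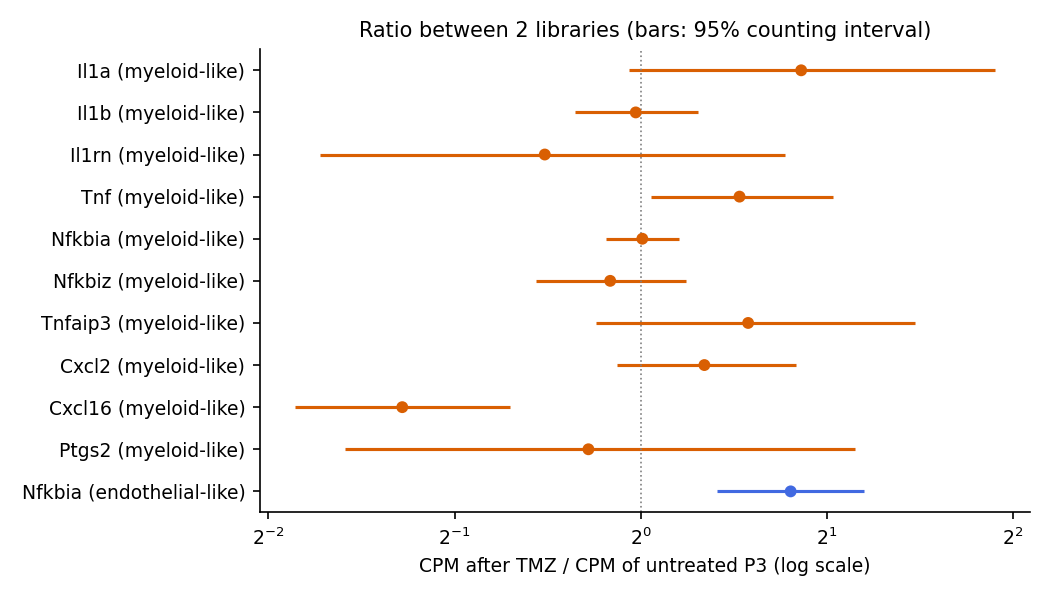
CPM after TMZ divided by CPM of P3 without it on a log axis, for the 10 genes in myeloid-like cells and for Nfkbia in endothelial-like cells, with 95% counting intervals as bars and a dotted line at 1. Cxcl16 lies below 1 (0.412), and Tnf (1.44) and endothelial-like Nfkbia (1.75) lie above it.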

How the data were processed

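Mouse-derived cells of 9 samples were profiled by Drop-seq. Per the labels, the authors mapped reads with STAR to GRCm38 (mm10), and the deposited files hold raw UMI counts per gene and cell barcode, without normalization, all whole numbers. Gene symbols in both FACS files (Nu-NB, P8) are older than those in the MACS files. Genes listed in every file were used.

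A cell was kept if 200 genes or more were detected and if mitochondrial UMIs made up 30% or less, and the 5% with the highest scrublet score in each sample were left out. Leiden clusters (leidenalg 0.10.2, resolution 1, seed 1) came from 20 neighbors in 30 principal components of 2000 variable genes in scanpy 1.11.5 (Python 3.11.15). The 10 genes, the pathway list and the dissociation list were kept out, and no batch was corrected for. Names came from marker lists. The rule that turned markers into names was set after the clusters had been seen. The 10 genes and all lists were chosen with earlier results of these data known, so that their direction is not independent evidence.

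For each class, UMIs of the cells of a sample were summed if there were 10 cells or more, and sums were tested with edgeR 4.0.16 (quasi-likelihood, TMM, filterByExpr, Benjamini-Hochberg over all genes tested) and DESeq2 1.42.0 as an alternative, on R 4.3.3. Both were tested on simulated data. P-values measure the spread between libraries. CPM has exact Poisson and shares have exact binomial (Clopper-Pearson) intervals of 95%, ratios have exact conditional ones, and the limit of a count of 0 is 3 counts. All cover counting error only, and UMIs near the 3′ end do not rank different genes by level. The depth behind the values is 205465 to 2565924 UMIs of myeloid-like cells per PDOX and 403813 in Nu-NB. Sums with fewer UMIs carry wider intervals. Genes named are the 10, those of the pathway list past the threshold or, where none passed, the 4 with the largest log2FC, and the 5 most like each of 3 genes, of which 1 is not reported here. Promoters are those of RefSeq. Alternatives were other tests, scalings, filters and depths, no doublet step, T192 and T233 as 1 sample, and leaving out each PDOX. Other mouse models of the study were not analysed here.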

Additional observations from a re-analysis of the deposited data

Results flagged for a closer look

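Among the 7 PDOXs, 14 values of 30 groups of values (46.7%) stood apart by Dixon's criterion at 95%. The nominal 5% of this criterion assumes independent values with a normal spread, which levels from few UMIs need not have. How many of all genes stand apart in this way was not counted, so that the 14 cannot be read as particular to these genes. The groups are the 10 genes in myeloid-like cells, in endothelial-like cells and as shares of myeloid-like cells. They share samples, and the levels and shares of myeloid-like cells share genes as well. Of the 14, 10 were in T192, 3 in T101 and 1 in T233.

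In myeloid-like cells T192 lay far above the other PDOXs for Il1b (1645 CPM, next 860), Nfkbiz (869 CPM, next 388), Tnf (484 CPM, next 170), Il1a (360 CPM) and Tnfaip3 (177 CPM, next 70.8). At equal depth its shares stood apart for Nfkbiz (30.3% of cells), Il1a (12.95%) and Tnfaip3 (6.39%). The endothelial-like cells of T192 stood apart for Nfkbiz (87.3 CPM) and Il1a (21.8 CPM, from 5 UMIs), and they held 1925 CPM of myeloid markers, where the median PDOX held 813. T101 stood apart for Il1rn in myeloid-like cells (146 CPM, 5.41% of cells), most of which were monocyte-like in T101, and for Ptgs2 in endothelial-like cells (197 CPM). T233 stood apart for Il1rn in endothelial-like cells (10.9 CPM, from 1 UMI, with an interval of 0.276 to 60.7 CPM), where it held 6350 CPM of myeloid markers.

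Tnfaip3 lay on opposite sides of Nu-NB in the classes. All 7 PDOXs lay above Nu-NB in myeloid-like cells, and all 7 below it in endothelial-like cells, where Nu-NB was at 59.5 CPM from 1 UMI and 37.4% of all genes tested lay below it in every PDOX. This difference was not tested.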

How the results depend on the processing

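No gene was called by edgeR in myeloid-like cells of PDOXs against Nu-NB, and this count became 238 by DESeq2, 2 with at least 500 detected genes per cell and 1 in microglia-like clusters only, an alternative chosen after seeing the data. Leaving out 1 PDOX at a time gave 0 to 36 calls, 36 without P8 and 1 without T233, and none of the 10 genes was among the calls of any of these edgeR fits. In astrocyte-like cells 0 calls became 21 without the filter on low counts and 0 to 17 with 1 PDOX left out (17 without P8, 7 without T192). Endothelial-like cells gave 0 calls under all 13 alternatives run, and the one of at least 500 detected genes could not be run there because Nu-NB had too few cells. Myeloid-like against endothelial-like cells gave 1413 calls, 3291 without the filter, 579 with sums thinned to the smallest total, 1375 with no replicate block and 1361 to 1977 with 1 PDOX left out. Against astrocyte-like cells the 2486 calls became 4156, 191, 2374 and 1581 to 2893 in that order, 1607 without P8 and 1581 without P13. Thinned sums and the filter change how many genes are tested, and other causes were not tested. The 8 genes with a higher share of myeloid-like than endothelial-like cells in all PDOXs became 2 when 2 UMIs were asked for. The 3 intervals of the TMZ ratio that left out 1 became 4 on TMM-scaled totals, with Il1a (ratio 1.94).

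Nfkbiz in endothelial-like cells of PDOXs against Nu-NB reversed from log2FC 0.34 to -0.41 without TMM, where the median of all genes went from 0.67 to -0.09. Of the other values of the 10 genes under alternatives, 484 kept their direction and side of the threshold or stayed within the spread between PDOXs, 4 passed it by DESeq2 alone (Il1b, Tnf, Cxcl2 and Cxcl16 against Nu-NB), and 18 shares moved, as they follow the depth or the UMIs asked for. No paired analysis was possible because there is 1 Nu-NB library and replicate numbers follow the order of samples and pair nothing. The sample was the block in comparisons of classes. In endothelial-like cells the 16803 UMIs of Nu-NB allow up to 179 CPM for a gene with no UMI, while the 403813 UMIs of its myeloid-like cells allow up to 7.43 CPM.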
